A study of Mus musculus with 4 samples.

Results

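The genes described here are the heme-regulated eIF2alpha kinase gene Eif2ak1 and 9 further genes of the integrated stress response, followed through 4 stages of red cell formation in the mouse fetal liver. They were chosen by name and comprise the 4 eIF2alpha kinase genes (Eif2ak1, Eif2ak2, Eif2ak3 and Eif2ak4), the transcription factor gene Atf4, its targets Ddit3, Trib3 and Asns, and the phosphatase subunit genes Ppp1r15a and Ppp1r15b. Of the 10 genes, 9 stand under these symbols among the 19564 symbols of the files, and Ppp1r15a stands under its older symbol Myd116, a synonym in the RefSeq gene table. Freshly isolated fetal liver cells, taken at E14.5 (mid-gestation), were sorted by their TER119 and CD71 staining, without culture. R2 held proerythroblasts with early basophilic cells, R3 basophilic erythroblasts at earlier and later steps, R4 mostly polychromatophilic and orthochromatophilic erythroblasts, and R5 late orthochromatophilic erythroblasts together with reticulocytes. The labels name no strain, genotype or treatment, and do not say how many embryos were pooled. Each population gave 1 library of polyadenylated RNA, so the differences below cannot be set against a spread between samples and carry no p-value. Values are RPKM as the authors deposited them, read counts scaled to gene length and library size.

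The eIF2alpha kinases, each tuned to its own stress, phosphorylate the alpha subunit of the initiation factor eIF2. HRI, the product of Eif2ak1, acts when heme is short and in erythroid cells keeps globin synthesis in step with heme supply; PKR (Eif2ak2) responds to double-stranded RNA, PERK (Eif2ak3) to unfolded protein in the endoplasmic reticulum and GCN2 (Eif2ak4) to uncharged tRNA. Phosphorylated eIF2 blocks its exchange factor eIF2B, which lowers general translation while the mRNA of Atf4 is translated better, and ATF4 then switches on genes of amino acid supply and stress. GADD34 (Ppp1r15a), which the response induces, and the constitutive CReP (Ppp1r15b) bring the phosphatase PP1 to eIF2alpha and reverse the mark. The present data are mRNA levels and measure neither that phosphorylation nor translation.

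The promoters of 3 of the genes are shown because they belong to genes with different courses below. The kinase gene and the phosphatase subunit gene were higher after R2, while as deposited the amino acid gene Asns was not. Each line is the 250 bases before the annotated start, from the RefSeq promoter table of build GRCm38.p6, in which 9 of the 10 genes matched by symbol (Ppp1r15b is the other). The Eif2ak1 window is chr5:143817542-143817791 on the plus strand, that of Ppp1r15a chr7:45526269-45526518 on the minus strand and that of Asns chr6:7693210-7693459 on the minus strand. Capitals mark matches on either strand to TGATGNAA (the element bound by ATF4 with C/EBP partners), TGACGTCA (the cyclic AMP response element), CCNCNCCC (Krüppel-like factors), and to the letters GATA preceded by A or T and followed by A or G (GATA factors). In the 3 printed stretches no 2 motifs overlap.
Eif2ak1: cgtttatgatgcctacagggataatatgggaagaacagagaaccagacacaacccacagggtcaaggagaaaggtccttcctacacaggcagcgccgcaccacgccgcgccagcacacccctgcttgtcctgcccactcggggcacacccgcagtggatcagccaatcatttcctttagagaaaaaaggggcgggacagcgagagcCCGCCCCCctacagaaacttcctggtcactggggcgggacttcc
Ppp1r15a: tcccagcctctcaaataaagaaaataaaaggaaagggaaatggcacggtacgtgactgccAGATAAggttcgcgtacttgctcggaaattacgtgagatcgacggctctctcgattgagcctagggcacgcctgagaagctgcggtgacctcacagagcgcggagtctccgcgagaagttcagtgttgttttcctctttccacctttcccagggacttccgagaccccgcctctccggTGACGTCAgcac
Asns: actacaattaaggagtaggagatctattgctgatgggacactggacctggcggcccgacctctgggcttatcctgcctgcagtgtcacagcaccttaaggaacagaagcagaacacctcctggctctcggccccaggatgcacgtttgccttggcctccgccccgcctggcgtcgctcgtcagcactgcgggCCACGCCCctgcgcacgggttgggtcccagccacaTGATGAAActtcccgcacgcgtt
Over windows that also took in the 50 bases after the start, TGATGNAA occurred in 3.97% of the 32851 promoters of the table, TGACGTCA in 1.79%, a GATA word in 29.8% and CCNCNCCC in 49.5%. Asns holds TGATGAAA beginning 23 bases before its start, and Trib3 holds TTACATCA, the same element on the opposite strand, 15 bases into the transcript. Ppp1r15a holds TGACGTCA beginning 12 bases before the start and AGATAA beginning 190 bases before it. In Eif2ak1 the searches found CCGCCCCC beginning 44 bases before the start and a match downstream of it. CCNCNCCC also matched in Asns, beginning 58 bases before the start, and in Eif2ak2, Eif2ak3, Eif2ak4, Ddit3 and Trib3. Atf4 and Ddit3 held a GATA word too. Neither motif was thus particular to the genes that were higher after R2. These are matches of letters in short windows and say nothing about binding.

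The globin content of the libraries touches every value. Globin genes made up 5.52% (R2), 59.4% (R3), 80.4% (R4) and 81.9% (R5) of all RPKM, and the RPKM of every other gene is relative to a total that includes them. These are shares of summed RPKM, not of reads. Hba-a1 and Hba-a2 carry the same value in every library, 306178 RPKM each in R5, and both are counted, so the shares may count the same reads again. The median of the 9942 genes that reached 1 RPKM in any population was 11.4, 4.53, 2.02 and 2.81 RPKM in R2, R3, R4 and R5. Ratios are therefore given on the log2(RPKM + 1) scale as deposited, after scaling each library by the median of its gene ratios (median scaling), and after removal of the globin genes with the rest brought to a common sum. On this log2 scale the median of all genes for R5 against R2 was -1.65 as deposited, -0.42 after median scaling and -0.67 without globins. Ratios between genes of the same library and ranks within a library are untouched by such scaling. All 8 erythroid markers checked, which include Slc4a1 and are led by the globin gene Hba-a1, were at 1 RPKM or more in every library, with a summed level of 356787 RPKM in R5, against 11577 RPKM in R2. Tfrc, which encodes the sort marker CD71, was at 52.1 (R2), 133 (R3), 74.4 (R4) and 32.8 RPKM (R5). The 10 granulocyte markers, all above 0 in every library and led by Mpo, summed to 6127 (R2), 426 (R3), 234 (R4) and 469 RPKM (R5).

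**Figure D1:**
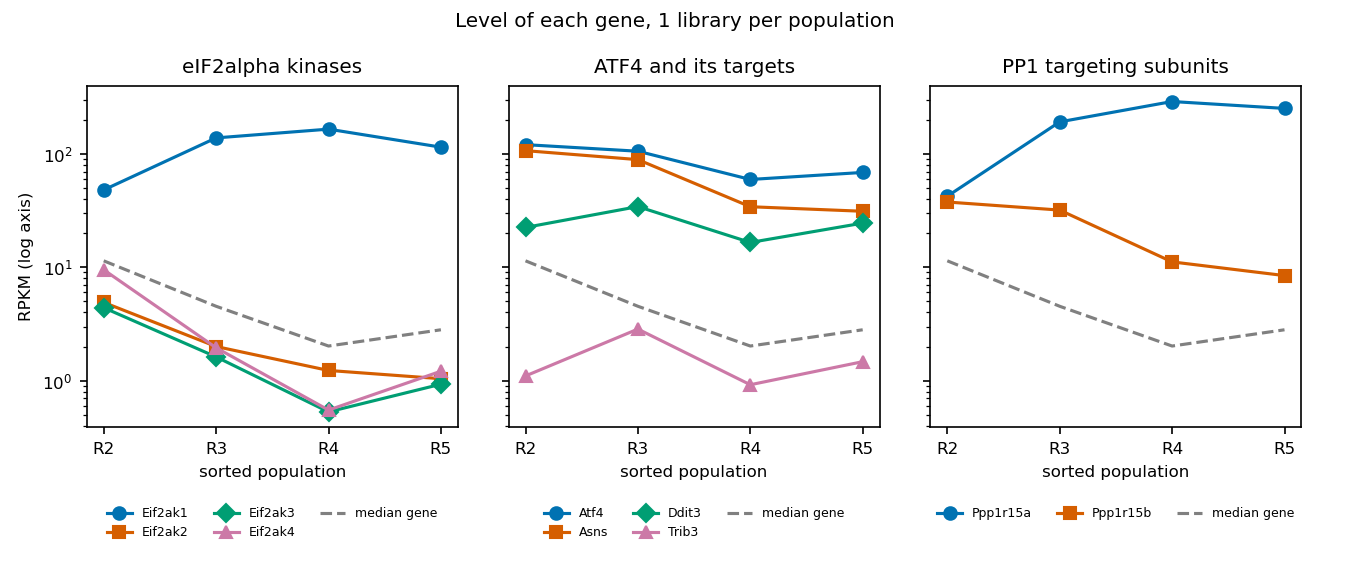
RPKM (log axis) of the 10 genes in R2, R3, R4 and R5, 1 library each, with the median of 9942 genes as a dashed line. Eif2ak1 lay between 48.1 and 166 RPKM and above the other 3 kinase genes everywhere, and Ppp1r15a and Ppp1r15b stood at 252 and 8.45 RPKM in R5, against 42.4 and 37.7 RPKM in R2.

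Eif2ak1, which encodes HRI, was the most abundant eIF2alpha kinase mRNA at every stage and gained on the other 3 after R2. It stood at 48.1 (R2), 139 (R3), 166 (R4) and 115 RPKM (R5). R2 was thus the lowest and R4 the highest library. Against R2, the R3 level was 2.88-fold and the R5 level 2.38-fold. On the log2(RPKM + 1) scale the R3 against R2 ratio was 1.51 as deposited, 2.36 after median scaling and 2.26 without globins, and the R5 against R2 ratio was 1.24, 2.80 and 2.46. Eif2ak1 therefore passed 2-fold from R2 under every scaling, as did 3.81% of genes in R3 and 2.74% in R5 as deposited. Its R5 against R2 ratio ranked 215 from the top of 9942 genes. Between later stages the order was less firm. R4 against R3 gave 0.26 as deposited, 1.34 after median scaling and 0.92 without globins, and R5 against R4 gave -0.52, -0.89 and -0.72. R5 against R3 was -0.27 as deposited but 0.44 after median scaling and 0.20 without globins, so the order of R3 and R5 depends on the scaling. Within each library Eif2ak1 stood at percentile 85.1 (R2), 97.6 (R3), 98.6 (R4) and 98.0 (R5) of the 9942 genes that reached 1 RPKM in any population. Of these, 9761 were at 1 RPKM or more in R2 itself, against 6531 in R4. Of its transcript, 488 bases are shared with Aimp2, a neighbouring gene on the other strand, and the sources used here do not say whether reads were counted by strand. Aimp2, a scaffold subunit of the tRNA synthetase complex, was at 76.6, 29.7, 20.3 and 23.15 RPKM in R2, R3, R4 and R5 as deposited. Eif2ak1 over Aimp2 within a library was 0.628 (R2), 4.67 (R3), 8.16 (R4) and 4.96 (R5). Any part of shared reads in the Eif2ak1 values was not tested.

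The other 3 kinase mRNAs were scarce and, as deposited, lowest in R4 or R5. Eif2ak4, encoding the amino acid sensor GCN2, was at 9.51 (R2), 1.95 (R3), 0.55 (R4) and 1.21 RPKM (R5). Eif2ak2, encoding the RNA sensor PKR, was at 4.90, 2.0, 1.23 and 1.04 RPKM in the same order. Eif2ak3, encoding the endoplasmic reticulum sensor PERK, was at 4.40, 1.62, 0.53 and 0.93 RPKM. R2 was the highest library for all 3. As deposited the R5 against R2 log2 ratios were -2.25 for Eif2ak4, -1.53 for Eif2ak2 and -1.48 for Eif2ak3, each at least 2-fold lower, but 76.9% of all genes were too. After median scaling they were -0.998, -0.41 and -0.40, short of 2-fold on the log2(RPKM + 1) scale, and without globins -1.27, -0.64 and -0.62. Beside all-gene medians of -1.65, -0.42 and -0.67, Eif2ak2 and Eif2ak3 lay near the middle, at percentiles 55.9 and 58.1 of the ratios of all genes as deposited, while Eif2ak4 lay at percentile 19.0. The added 1 RPKM shrinks ratios of values this low, and the percentiles rest on the same scale. On the plain log2 RPKM scale the R5 against R2 ratios as deposited were -2.97 for Eif2ak4, -2.24 for Eif2ak2 and -2.24 for Eif2ak3. After median scaling Eif2ak4 was at 4.37 RPKM in R2 and 1.69 RPKM in R5. About 112 reads stood behind the lowest value of Eif2ak4, 110.2 behind that of Eif2ak2 and 87.6 behind that of Eif2ak3, estimated from exonic length. The 10 granulocyte markers were also highest in R2, as given above. Their part in the 3 kinase levels was not tested, and in these bulk libraries fewer cells of a type and less RNA per cell cannot be told apart.

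Set within a library, the kinase pool became nearly all Eif2ak1. Its share of the summed RPKM of the 4 kinase genes was 71.9% (R2), 96.1% (R3), 98.6% (R4) and 97.3% (R5). The other 3 together summed to 18.8 RPKM in R2 and to 5.57, 2.31 and 3.18 RPKM in R3, R4 and R5. Eif2ak4 was the next kinase in R2, where Eif2ak1 was 5.06 times its RPKM, against 71.0 times in R3, 301 times in R4 and 94.8 times in R5. Most of the change in share lay between R2 and R3. Computed from estimated reads, the shares were 69.0% (R2), 95.8% (R3), 98.6% (R4) and 97.0% (R5).

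**Figure D2:**
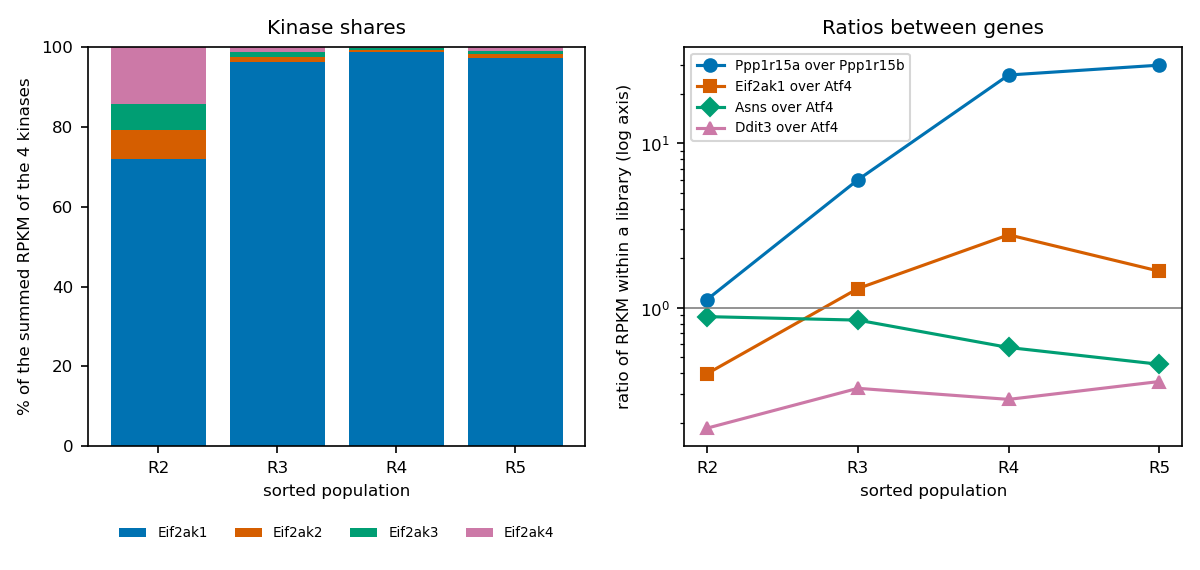
Left, the share of each kinase gene in the summed RPKM of the 4 (percent, bars from 0); right, ratios of RPKM between pairs of genes within a library (log axis), both by population. Eif2ak1 makes up at least 96.1% in R3, R4 and R5, against 71.9% in R2, and Ppp1r15a over Ppp1r15b is 29.8 in R5, against 1.12 in R2.

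The pair of phosphatase subunit genes drew apart after R2. Ppp1r15a, encoding GADD34, was at 42.4 (R2), 192 (R3), 290.1 (R4) and 252 RPKM (R5). The R2 library was far below the other 3. Its R5 level was 5.95-fold that of R2, with a log2 ratio of 2.55 as deposited, 4.11 after median scaling and 3.77 without globins, and ranked 47 from the top of 9942 genes. R3 against R2 alone gave 2.15, 2.998 and 2.90. Among the 10 genes Ppp1r15a had the highest ratio in both comparisons under each scaling. Ppp1r15b, encoding the constitutive CReP, was at 37.7 (R2), 32.0 (R3), 11.2 (R4) and 8.45 RPKM (R5), the lowest in R5. Its R5 against R2 log2 ratio was -2.03 as deposited, -0.52 after median scaling and -0.85 without globins. Against R3 its R5 ratio stayed past 2-fold under every scaling, at -1.80, -1.14 and -1.36, and as deposited it stood at percentile 0.322 of all gene ratios. The share of genes at least 2-fold lower in R5 than in R3 was 13.1% as deposited, 0.986% after median scaling and 2.72% without globins. In ratios within a library, Ppp1r15a over Ppp1r15b was 1.12 (R2), 5.999 (R3), 26.0 (R4) and 29.8 (R5). A stretch of 640 bases of Ppp1r15b is shared with Gm26616, a gene not used here.

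Of the genes for PP1 itself, the catalytic partner of both subunits, Ppp1ca and Ppp1cc were highest in R2 as deposited. Ppp1cb, like Ppp1r15a, was highest in R4. Ppp1ca was at 369 (R2), 166 (R3), 59.6 (R4) and 91.6 RPKM (R5), Ppp1cc at 129.6, 69.3, 28.3 and 51.4, and Ppp1cb at 17.8, 23.85, 26.5 and 12.4. As deposited 2 of the 3 genes were at least 2-fold lower in R5 than in R2, beside 76.9% of all genes, and none after median scaling, beside 13.7%, where their log2 ratios were -0.41 for Ppp1ca, 0.27 for Ppp1cc and 0.995 for Ppp1cb.

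Atf4 mRNA was abundant throughout and changed little in rank. It stood at 121 (R2), 106 (R3), 59.5 (R4) and 68.7 RPKM (R5). As deposited R2 and R3 were the higher libraries and R4 the lowest. After median scaling R2 was the lowest at 55.5 RPKM and R4 the highest at 107. Without globins R2 was again the lowest at 66.1 RPKM, and R3 the highest at 99.1. Its place within each library among the genes that reached 1 RPKM in any population was nevertheless level, at percentile 94.9 (R2), 96.8 (R3), 96.5 (R4) and 96.5 (R5). Ranks this near the top leave little room to rise. As deposited the R5 against R2 ratio of Atf4 stood at percentile 82.5 of the ratios of all genes, so it fell less than most. The R5 against R2 log2 ratio depended on the scaling, at -0.81 as deposited, 0.78 after median scaling and 0.43 without globins, and passed 2-fold under none. The ratio of Eif2ak1 to Atf4 RPKM within a library was 0.399 (R2), 1.31 (R3), 2.78 (R4) and 1.67 (R5).

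The 3 named ATF4 targets did not move as a block. Asns, asparagine synthetase, was at 107 (R2), 89.1 (R3), 34.2 (R4) and 31.2 RPKM (R5), so that the 2 late libraries were the low ones as deposited. After median scaling it was at 49.2, 75.6, 61.7 and 43.6 in the same order, highest in R3. Its R5 against R2 log2 ratio was -1.74 as deposited, close to the all-gene median, and -0.17 after median scaling and -0.51 without globins. Ddit3, encoding the stress factor CHOP, was at 22.5, 34.3, 16.6 and 24.5 RPKM in R2, R3, R4 and R5, with R3 the highest as deposited; relative to R3, R5 had a log2 ratio of -0.47 as deposited but 0.23 after median scaling. As deposited its R5 and R2 levels were within counting error (log2 ratio of RPKM 0.13, exact 95% interval from estimated reads -0.01 to 0.26). After median scaling the log2(RPKM + 1) ratio of Ddit3 was 1.64, and without globins 1.31, both past 2-fold, as for 9.42% and 7.27% of all genes. Trib3, a pseudokinase that damps ATF4 and CHOP activity, was near the floor of the data at 1.10 (R2), 2.85 (R3), 0.92 (R4) and 1.47 RPKM (R5), and was likewise highest in R3. Between 53.6 and 155 reads were estimated for it. The R3 against R2 ratio of Trib3 was 1.37 on the plain log2 RPKM scale, with an exact 95% interval of 0.91 to 1.84 for counting error only. On the log2(RPKM + 1) scale it was 0.87 as deposited, under 2-fold, and 1.18 and 1.20 under the other scalings. Within a library Asns over Atf4 was 0.885, 0.843, 0.575 and 0.454 in R2, R3, R4 and R5, while Ddit3 over Atf4 was 0.186, 0.325, 0.278 and 0.357.

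**Figure D3:**
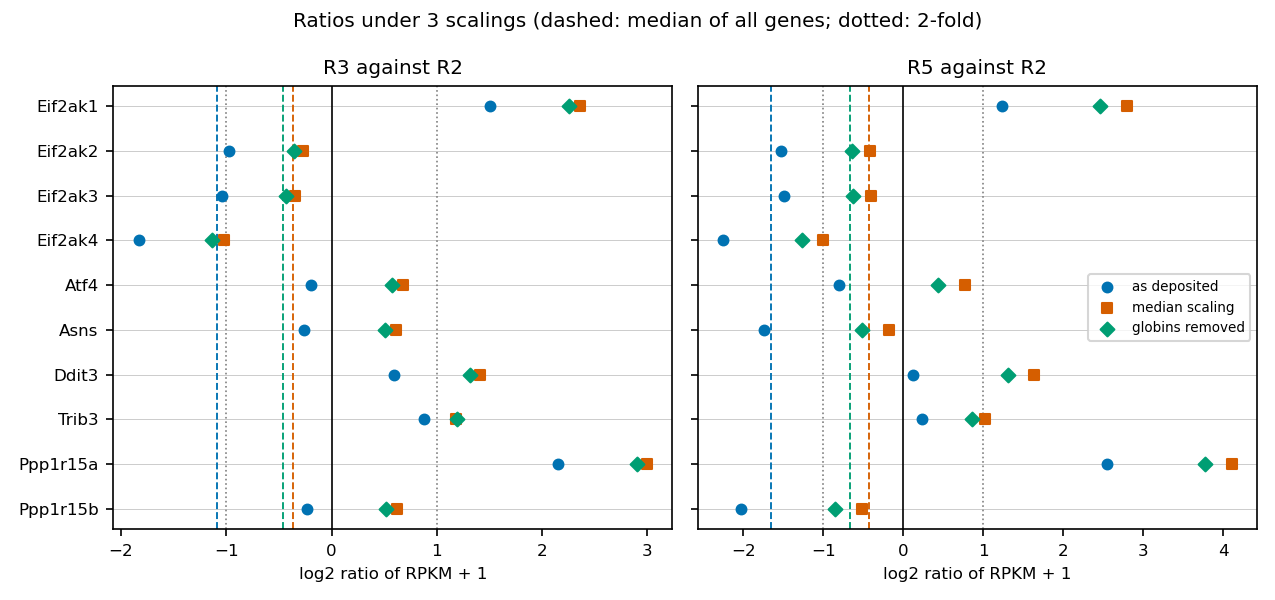
Log2 ratios of RPKM + 1 of the 10 genes for R3 against R2 (left) and R5 against R2 (right), as deposited, after median scaling and without globins; dashed lines are the median of all genes under the same scaling and dotted lines mark 2-fold. Eif2ak1 and Ppp1r15a lie beyond 2-fold higher under all 3 scalings, whereas Atf4 lies below 0 as deposited and above 0 under the other scalings.

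Counted together, 2 of the 10 genes (Eif2ak1 and Ppp1r15a) were higher in R5 by 2-fold or more relative to R2 as deposited, against 2.74% of all genes, and 5 were at least 2-fold lower, against 76.9%. The median log2 ratio of the 10 was -1.14, beside -1.65 for all genes. After median scaling 4 were higher, among 9.42% of all genes, and 0 lower, among 13.7%, with a median of 0.30 beside -0.42. For R3 against R2 the counts as deposited were 2 higher and 2 lower, against 3.81% and 55.1% of all genes. R4 against R3 had 0 higher and 4 lower (Ppp1r15b, Asns, Ddit3 and Trib3), against 0.493% and 32.1%. In R5 against R4 none of the 10 passed 2-fold in either direction, against 3.97% of genes higher and 0.604% lower. R5 against R3 had 0 higher and 2 lower, against 0.664% and 13.1%. Under median scaling the counts were 4 higher and 1 lower for R3 against R2, beside 8.38% and 18% of all genes, 2 and 0 for R4 against R3, beside 4.26% and 0.382%, 0 and 0 for R5 against R4, beside 1.75% and 2.56%, and 1 and 1 for R5 against R3, beside 2.94% and 0.986%. Without globins they were 4 and 1 for R3 against R2, beside 7.68% and 22%, 1 and 0 for R4 against R3, beside 1.93% and 2.65%, and 0 and 0 for R5 against R4, beside 2.71% and 1.54%. For R5 against R2 they were 3 and 1, beside 7.27% and 28.8%, and for R5 against R3 0 and 2, beside 1.72% and 2.72%. Eif2ak1 and Ppp1r15a were among the genes counted as higher for R3 against R2 and R5 against R2 under each scaling. Comparisons that share a population are not independent of each other.

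Regulators of the kinases stood lower in R5 with most other genes. All 11 measured were at least 2-fold lower in R5 than in R2 as deposited, 4 after median scaling and 5 without globins, beside 76.9%, 13.7% and 28.8% of all genes, and the list median of -1.92 lay beside -1.65 for all genes. The 4 under median scaling were the chaperone genes Hspa8, Hsp90aa1 and Hsp90ab1, whose products take part in the maturation of HRI, and Gcn1l1, needed to activate GCN2. Hspa8 was at 2245 (R2), 495 (R3), 174 (R4) and 271 RPKM (R5), Hsp90ab1 at 1391, 255, 104 and 207, and Hsp90aa1 at 216, 54.1, 20.9 and 28.9. Their R5 against R2 log2 ratios after median scaling were -1.44, -1.14 and -1.28, the opposite direction to Eif2ak1. Gcn1l1 was at 7.47 RPKM in R5, against 54.9 RPKM in R2, a ratio of -1.20 after median scaling. Dele1 and Oma1, which in human cells relay mitochondrial stress to HRI, had ratios of -0.30 and -0.92 after median scaling. For the PKR activator Prkra that ratio was -0.63, for the PKR inhibitor Tarbp2 -0.04, for Dnajc3, an inhibitor of PKR and PERK, -0.60, for the GCN2 inhibitor Impact -0.48 and for the adaptor gene Nck1 -0.34.

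Genes for the target of the kinases and its exchange factor were likewise lower with most other genes. Of 10 genes for eIF2, eIF2B and eIF5, 9 were at least 2-fold lower in R5 than in R2 as deposited, 2 after median scaling and 5 without globins, beside the same 76.9%, 13.7% and 28.8%, with a median log2 ratio of -2.05 beside -1.65 for all genes. Eif2s1, which encodes the phosphorylated alpha subunit itself, was at 23.5 (R2), 10.9 (R3), 4.03 (R4) and 5.32 RPKM (R5). Eif2ak1 was thereby 2.05 times the Eif2s1 RPKM in R2, 12.7 times in R3, 41.1 times in R4 and 21.6 times in R5. The 2 genes lower under median scaling were Eif2s3x, a gamma subunit gene, at 135, 54.2, 18.5 and 20.04 RPKM in the order of the stages, and Eif2b1, the alpha subunit gene of eIF2B, at 45.2, 8.75, 3.68 and 6.13. The other subunit genes, Eif2s2, Eif2s3y, Eif2b2, Eif2b3, Eif2b4 and Eif2b5, had ratios between -0.98 and -0.22 after median scaling. Eif5, the GTPase activator of eIF2, was the exception at 42.6, 44.7, 61.3 and 25.2 RPKM, highest in R4, with 0.81.

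Among 30 further ATF4 targets, 5 did not reach 1 RPKM in any library (Vldlr, Slc7a11, Aldh1l2, Pycr1 and Cth). Of the other 25, which needed 1 RPKM in only 1 library to be counted, 0 were at least 2-fold higher and 14 lower in R5 than in R2 as deposited, against 2.74% and 76.9% of all genes. After median scaling 5 were higher and 4 lower, beside 9.42% and 13.7% of all genes, and without globins 3 and 6, beside 7.27% and 28.8%. Amino acid transporter genes of the list differed in direction. Slc7a1, a transporter of cationic amino acids, was at 26.6 (R2), 13.6 (R3), 4.08 (R4) and 4.20 RPKM (R5), with R5 against R2 log2 ratios of -2.41 as deposited and -0.95 after median scaling. Slc1a5, a glutamine transporter, was at 73.0 (R2), 175 (R3), 190.4 (R4) and 137 RPKM (R5), a log2 ratio of 0.89 as deposited for R5 against R2 and 2.47 after median scaling. Slc3a2 and Slc7a5, the subunits of a leucine transporter, were at 53.0, 54.0, 51.5 and 51.7 RPKM for Slc3a2 and 109, 121, 93.0 and 74.5 for Slc7a5. Their ratios after median scaling were 1.53 and 1.04. The other 2 higher under that scaling were Gdf15, a secreted stress factor, at 1.23, and Chac1, which degrades glutathione, at 1.05, both at most 2.08 RPKM in every library. The 4 that were lower after median scaling were 3 enzyme genes of amino acid synthesis and the adaptor gene Grb10. Phgdh, the first enzyme of serine synthesis, was at 138 (R2), 20.7 (R3), 6.20 (R4) and 16.2 RPKM (R5), a ratio of -3.01 as deposited and -1.45 after median scaling. Aldh18a1, of proline synthesis, had -2.90 and -1.36, Psat1, of serine synthesis, -2.85 and -1.30, and Grb10 -2.70 and -1.21. Shmt2, which turns serine into glycine in mitochondria, was at 196, 82.6, 29.5 and 42.6 RPKM, with -0.59 under median scaling. In the promoter windows, TGATGNAA occurred in 8 of the 25 listed targets that the table held under their symbol, against 4.51% of 27025 genes. These 25 were taken by symbol and not by level. A list of ATF4 targets and the element bound by ATF4 are not independent, so this share is no separate evidence. CCNCNCCC occurred in 19 of them against 51.9% of genes, a GATA word in 6 against 33.0%, and TGACGTCA in 0 against 2.03%. Psat1, Grb10, Chac1, Slc7a1 and the 5 genes under 1 RPKM were named after their values were seen.

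**Figure D4:**
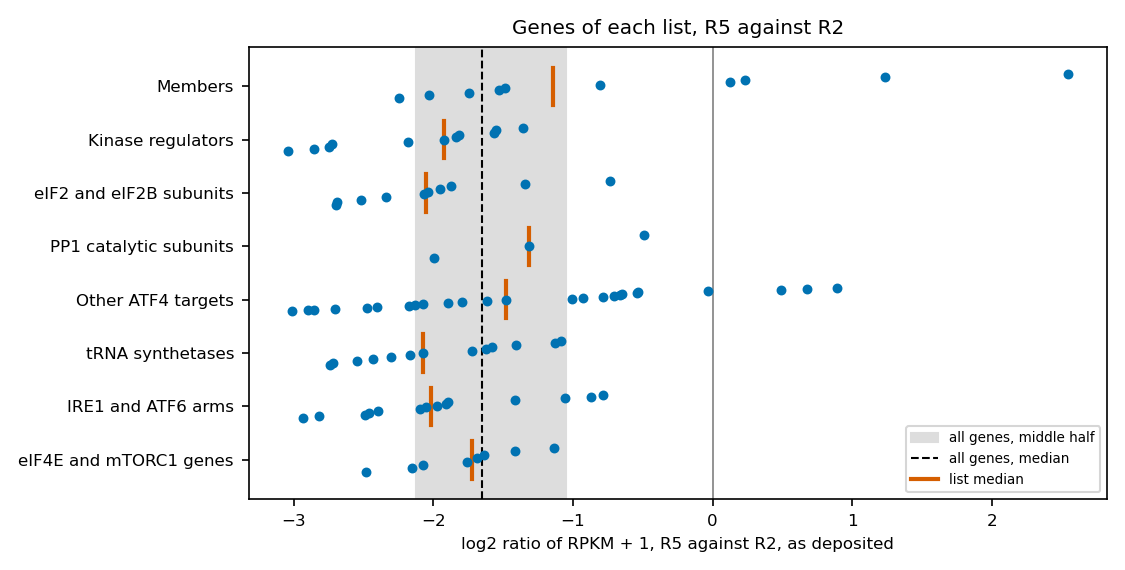
Log2 ratios of RPKM + 1 for R5 against R2 as deposited, each point a gene past 1 RPKM, for the 10 members and 7 related lists; the band holds the middle 50% of all 9942 genes, the dashed line is their median and the short bars are list medians. Of the members 2 lie beyond 1, and none of the genes of the other lists do.

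Genes whose course was nearest to that of Eif2ak1 were sought among 5597 genes that reached 10 RPKM somewhere, by the Euclidean distance between log2(RPKM + 1) profiles centred on their means. Over the 4 populations the nearest included Mylk3 at a distance of 0.177, Stradb at 0.185, Asb1 at 0.194 and Ctsb at 0.226. Ctsb, which encodes the lysosomal protease cathepsin B, was at 70.5 (R2), 162 (R3), 209 (R4) and 148 RPKM (R5). Ppp1r15a was at rank 247 with a distance of 0.970, and Atf4 at rank 857 with 2.03. The nearest to Atf4 included Rnf181 at 0.0869, Cib1 at 0.0902, Ccdc99 at 0.0906 and Zfand3 at 0.107. With 4 points a profile, such distances describe these libraries and nothing more.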

How the data were processed

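RNA from sorted fetal liver erythroblasts was enriched for polyadenylated transcripts and sequenced on a Solexa instrument, per the labels' protocols. The deposited values are RPKM computed by the authors, 1 per gene symbol with 2 decimals, per the file headers. The genome build was mm9 per the submitters' processing notes; the aligner, the counting program, strand handling and gene length used are not stated (not given in the sources used here). Genes at 1 RPKM or more in at least 1 library were kept (9942 of 19564). Ratios are of RPKM with a pseudocount of 1, and genes past 2-fold were called; with 1 library a population there is no test. Median scaling used 2745 genes with at least 5 RPKM in every library.

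Depth was estimated from genes whose values are whole multiples of 1 number per library, read as 1 read over 1 base. This gave about 2.30e+07 (R2), 2.56e+07 (R3), 2.74e+07 (R4) and 2.07e+07 (R5) reads, resting on 4 genes in R2 and 2 in each other library. Reads per gene used exonic lengths of the GENCODE M21 annotation, so intervals are approximate and cover counting error only. Shared sequence was sought with blastn 2.17.0 against GENCODE transcripts (at least 100 bases at 95% identity). Computations used Python 3.11.15 and pandas 2.3.3. The calls and the median scaling were tested on simulated data with large changes planted in well expressed genes only. Those data had no shift in globin content and no spread between samples. They did not test changes near 2-fold or genes near the floor. The members and gene lists were chosen with earlier results of these data known. The text names all members and genes of the regulator, eIF2 and PP1 lists; of other lists the 4 with the highest mean RPKM and the 2 highest and 2 lowest R5 against R2 ratios; and the 5 nearest profiles, of which some are not reported here. Alternatives took a pseudocount of 0.1 or 5 RPKM, omitted the filter or set it at 5 RPKM, and used both rescalings, R5 against R3, kinase shares by reads and ranks over all genes. Counting the 9 members under their own symbol alone was added after seeing the data.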

Additional observations from a re-analysis of the deposited data

How the results depend on the processing

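No paired analysis was possible because each population has 1 library. Depth limits Trib3 and the lesser kinase genes most. Counts of the 10 genes past 2-fold moved with the scaling. After median scaling they were 4 higher and 1 lower for R3 against R2, 2 and 0 for R4 against R3, and 4 and 0 for R5 against R2, and without globins 4 and 1, 1 and 0, and 3 and 1. A pseudocount of 5 RPKM left 1 lower (R3 against R2), 2 lower (R4 against R3) and 3 lower (R5 against R2), and a filter of 5 RPKM left 1 and 3 lower in the first and last of these. With a pseudocount of 0.1 RPKM, R3 against R2 had 3 higher (Trib3 added) and 3 lower (Eif2ak2 added). Under it R4 against R3 had 6 lower (Eif2ak3 and Eif2ak4 added), and R5 against R4 had 1 higher (Eif2ak4). Without Ppp1r15a, 1 was higher in R3 against R2 and 1 in R5 against R2. R5 against R3 had 0 higher and 2 lower. The median of the 10 genes for R5 against R2 turned from -1.14 to 0.30 after median scaling, and was -0.039 without globins, -0.81 with a filter of 5 RPKM, -0.69 with a pseudocount of 5 RPKM and -0.51 for R5 against R3. For R4 against R3 it was -1.21 with a pseudocount of 0.1 RPKM. The R4 against R3 ratio of Ddit3 turned from -1.01 to 0.035 after median scaling, the Eif2ak1 ratio was -0.27 for R5 against R3, and the R5 against R2 median of PP1 catalytic genes turned to 0.27 after median scaling. Of 238 recomputed ratios of single members, 27 no longer passed 2-fold but kept their direction, and 2 more lost it with a change of direction. Another 15 newly passed. Over all 238 the direction changed in 15, of which 8 were after median scaling (Atf4 in all 4 comparisons, Asns and Ppp1r15b for R3 against R2, Ddit3 and Eif2ak2 for R4 against R3), 4 without globins and 3 for R5 against R3. A filter leaves the ratio of a single gene as it was, and a pseudocount cannot change its sign. Many of the 238 therefore could not change direction, and only both rescalings and R5 against R3, which is a different comparison, could. All but 2 of the 15 with a changed direction were under 2-fold as deposited.

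Counts over all genes also moved. After median scaling, higher and lower were 833 and 1789 for R3 against R2, 424 and 38 for R4 against R3, 174 and 255 for R5 against R4, and 937 and 1367 for R5 against R2. Without globins the counts were 763 and 2181, 192 and 263, 269 and 153, and 722 and 2864. A pseudocount of 5 RPKM gave 251 and 2969, 24 and 970, and 79 and 21 for the 3 steps, and 4752 lower for R5 against R2. One of 0.1 RPKM gave 74 higher and 5893 lower for R4 against R3, and 1603 and 156 for R5 against R4. R5 against R3 had 66 higher and 1302 lower. The Eif2ak1 share in R2 was 69.0% by reads, because the gene lengths differ.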

Other observations

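Genes of the other arms of the unfolded protein response and of the eIF4E and mTORC1 pathway were lower in R5 than in R2 with most genes. Of 14 genes of the IRE1 and ATF6 arms, 12 were lower by 2-fold or more as deposited and 3 after median scaling, beside 76.9% and 13.7% of all genes, with medians of -2.01 and -0.52 beside -1.65 and -0.42 for all genes. For R3 against R2, 11 were lower as deposited and 7 after median scaling, beside 55.1% and 18%. The R3 against R2 medians were -1.89 and -1.02, beside -1.09 and -0.37 for all genes. For R4 against R3 the median after median scaling was 0.29, beside -0.065. Hspa5, encoding the endoplasmic reticulum chaperone BiP, was at 201 (R2), 71.5 (R3), 62.8 (R4) and 53.4 RPKM (R5), and Calr, encoding calreticulin, at 449, 116, 73.7 and 107. Hsp90b1 and Hyou1, also chaperone genes of that compartment, had the lowest log2 ratios, -2.94 and -2.82 as deposited, and Sdf2l1 had -2.39. The highest were Dnajb9 at -0.79 and the sensor gene Atf6 at -0.87.

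Of 13 genes for tRNA synthetases and the tRNA exporter Xpot, 13 were lower by 2-fold or more as deposited and 3 after median scaling, beside the same 76.9% and 13.7%, with medians of -2.08 and -0.53. The alanine enzyme gene Aars was at 64.6 (R2), 59.1 (R3), 26.3 (R4) and 29.9 RPKM (R5), the highest ratio of the list (-1.09 as deposited and 0.48 after median scaling). Nars, for asparagine, followed with -1.13 and 0.44. Iars and Eprs had the lowest, -2.74 and -2.72 as deposited, and Sars, Gars and Mars lay between, at -1.58, -2.17 and -1.73. All 8 eIF4E and mTORC1 genes were lower by 2-fold or more as deposited, beside 76.9%, and 1 after median scaling, beside 13.7%, the cap-binding factor gene Eif4e, at 10.6 (R2), 3.89 (R3), 1.44 (R4) and 1.08 RPKM (R5). Eif4ebp2, Rheb and Rptor had -2.07, -1.64 and -1.69 as deposited, Tsc1 and Rps6kb1 -1.14 and -1.42, and Tsc2 -2.15.

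Other marker lists were lower or uneven across libraries. The 8 hepatocyte markers, all above 0 throughout and led by Alb, summed to 199 (R2), 495 (R3), 170 (R4) and 367 RPKM (R5), highest in R3, as Ddit3 and Trib3 were as deposited. Their part in those levels was not tested. The 10 macrophage markers, led by C1qc, summed to 99.1, 57.6, 24.3 and 57.1 RPKM, with Cd163 at 0 in R2. The 6 measured megakaryocyte markers, led by Pf4, summed to 38.2, 42.0, 22.6 and 67.7 RPKM. The 6 lymphoid markers, led by Cd79b, summed to 29.2, 2.20, 1.33 and 2.83 RPKM, with Cd3e at 0 throughout.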
